A study of Mus musculus with 4 samples.

Results

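The genes described here are 38 genes of fatty acid oxidation and of the response to PPAR-alpha in mouse liver, taken by symbol from a fixed list out of 25239 counted genes. The list holds the receptor, enzymes of mitochondrial and peroxisomal oxidation, a ketone body enzyme, the Cyp4a hydroxylases and other known PPAR-alpha targets. All 38 were found and all 38 had enough counts to be tested. Liver RNA came from C57BL/6 mice aged 6 to 8 weeks. The control mice received saline, and the treated mice received an extract of Gynura segetum, a medicinal plant that contains pyrrolizidine alkaloids, into the stomach at 30 g/kg per day from an extract concentrated to 2 g/mL. Both treatments lasted 3 weeks, with 2 libraries in each group. The labels give no sex, feeding state or collection time, and do not say that libraries of a group came from separate mice, so the p-values reflect the spread between these libraries alone, which may be technical.

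PPAR-alpha is a nuclear receptor that is activated by fatty acids and binds DNA together with the retinoid X receptor. In hepatocytes it raises the genes that take up, activate and oxidise fatty acids, most strongly in fasting, when the liver burns fatty acids delivered from adipose tissue and makes ketone bodies. The Cyp4a hydroxylases, the type I acyl-CoA thioesterases, Pdk4, Vnn1 and Fgf21 are among its most inducible targets in mouse liver, whereas many enzymes of the mitochondrial oxidation spiral respond less.

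The libraries held 32215268 to 49711750 gene counts, and albumin (Alb), the defining hepatocyte transcript, was at 69267 to 109141 CPM (counts per 1000000 counts of a library scaled by edgeR's TMM factor). Summed levels of 9 hepatocyte markers were 151695 and 161832 CPM in control and 100804 and 107616 CPM in extract libraries, and 4 of the 9 passed the test, all lower after the extract. Of 8 adipocyte genes, Lep and Adig had 0 counts in all 4 libraries, and the summed level was 13.6 and 12.9 CPM in control and 26.1 and 20.4 CPM in extract libraries, nearly all from Lipe. Of 8 muscle genes, Myh4, Mb and Tnnt3 had 0 counts, and the sum of 7.72 to 9.85 CPM came mostly from Des. Of 7 pancreatic acinar genes, Cela3b, Cpa1 and Amy2a5 had 0 counts, and Cela1 lay at 7.42 to 28.9 CPM. In edgeR's quasi-likelihood test, adjusted by Benjamini and Hochberg over 13963 genes, 686 genes (4.91%) were higher and 507 (3.63%) lower after the extract at an adjusted p under 0.05. With total-count scaling the split was 940 higher and 338 lower, and the median log2 fold change of all genes moved from -0.00 to 0.16. Across genes, which are not independent replicates, Pearson's r on a log2(CPM + 1) scale was 0.979 within the control pair and 0.993 within the extract pair.

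Most of the 38 genes were not called different between the groups, and many of the known inducible targets differed more between the 2 control libraries than between control and extract. Acsl1, the long-chain acyl-CoA synthetase that activates fatty acids, fell 2.81-fold, and Cyp4a12a, a fatty acid omega-hydroxylase, rose 7.45-fold from a very low level (4.89-fold without control replicate 1 and 13.6-fold without control replicate 2). These were the only genes of the 38 past the threshold, 1 higher and 1 lower, or 5.26% of the list against 8.54% of all genes tested. The other 36 did not pass. The median log2 fold change of the 38 was -0.30, against -0.00 for all genes tested, and 30 of the 38 values were negative. Leaving out control replicate 2 gave a median of 0.06, leaving out control replicate 1 gave -0.50, and total-count scaling gave -0.13.

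**Figure D1:**
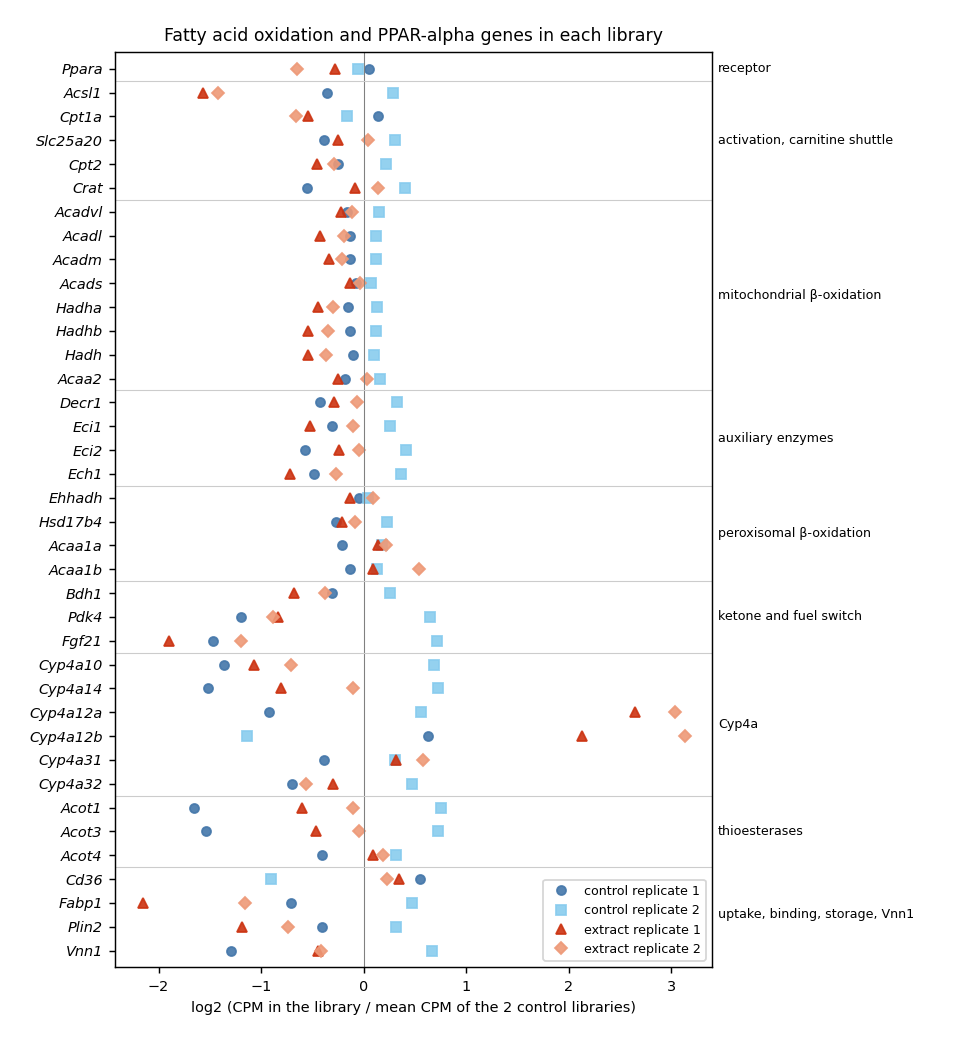
Each row is a gene and each point a library, placed at the log2 ratio of its CPM to the mean CPM of the control libraries (0 on the horizontal axis). Control replicate 2 (squares) lies to the right of control replicate 1 (circles) for 34 of 38 genes, and the extract libraries lie apart from both controls to the left for 12 genes and to the right for 3.

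Control and extract values stood apart for 15 of the genes, against 54.4% of all genes tested. Both extract libraries lay below both controls for 12 genes (31.6%, against 26.7% of all genes tested) and above them for 3 (7.89%, against 27.6%). The 12 were Ppara, Acsl1, Cpt1a, Cpt2, Acadl, Acadm, Hadha, Hadhb, Hadh, Bdh1, Fabp1 and Plin2, and the 3 were Cyp4a12a, Cyp4a12b and Cyp4a31. For 14 genes (36.8%, against 16.1% of all genes tested) both extract libraries lay between the controls. Those included Cyp4a10, Cyp4a14, Acot1, Acot3, Pdk4, Vnn1 and Cd36. Before adjustment, 9 of 38 had a p under 0.05 (23.7%, against 23.5% of all genes tested).

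The receptor itself was slightly lower after the extract, without passing the test. Ppara (chromosome 15, 85734910 to 85806851, mm10) lay at 339.5 and 316 CPM in the control libraries and at 269 and 208 CPM in the extract libraries. Both extract libraries were below both controls. The log2 fold change was -0.46 (SE 0.17, edgeR adjusted p = 0.163, unadjusted 0.0317). It stayed negative when each library was left out, from -0.66 to -0.30.

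Among the 5 genes that activate fatty acids and carry them into mitochondria, Acsl1 fell and the rest did not pass. Acsl1 (chromosome 8, 46471037 to 46536051) was at 981 and 1533 CPM in control and at 423 and 470.3 CPM in extract libraries. The groups did not overlap, and the extract libraries lay close together. This gave a log2 fold change of -1.49 (SE 0.23, 95% interval -2.05 to -0.94, edgeR adjusted p = 0.0137). The adjusted p was 0.0708 without extract replicate 1, and the fall ranged from 2.19-fold to 3.43-fold over the 14 alternatives. In bulk liver, fewer cells of a type and less RNA per cell cannot be told apart, and the part of the lower hepatocyte markers in this fall was not tested. A transcript on the opposite strand that was not counted as a gene, Gm45244, overlaps 1039 of the 10483 exon bases of Acsl1.

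Cpt1a, the liver carnitine palmitoyltransferase that controls entry of long-chain fatty acids into mitochondria, was at 450.5 and 364 CPM in control and at 279 and 258 CPM in extract libraries. Both extract libraries lay below both controls. Fitted over all genes, the log2 fold change was -0.60 (SE 0.16, edgeR adjusted p = 0.0706), and DESeq2's Wald test, which called 7.41% of genes higher and 6.60% lower, gave -0.61 with an adjusted p of 0.00785. Cpt2, which turns the acylcarnitine back into acyl-CoA inside the mitochondrion, was at 129.9 and 180.1 against 113 and 127 CPM, again without overlap (log2 fold change -0.37, edgeR adjusted p = 0.296). The carnitine-acylcarnitine carrier Slc25a20 and carnitine acetyltransferase Crat overlapped between the groups, with log2 fold changes of -0.09 and 0.04.

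The 8 genes of the mitochondrial oxidation spiral had negative log2 fold changes throughout, from -0.45 to -0.08, though those of Acadvl, Acads and Acaa2 changed sign in at least 1 alternative. The fit called 0 of the 8 at an adjusted p under 0.05, against 8.54% of all genes tested. At an unadjusted p under 0.05 there were 2 of the 8, against 23.5% of all genes tested. DESeq2 and limma-voom also called 0 of the 8. Acadm, the medium-chain acyl-CoA dehydrogenase, was at 279.9 and 335 CPM in control and at 243 and 265 CPM in extract libraries. The groups did not overlap, but the gap between the nearest libraries was smaller than the difference within the control pair. Its log2 fold change was -0.27 (SE 0.15, 95% interval -0.64 to 0.09, edgeR adjusted p = 0.352).

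Hadha and Hadhb encode the alpha and beta subunits of the mitochondrial trifunctional protein, which carries out the later steps on long chains. They are neighbours on chromosome 5 in opposite orientations, with Hadha at 30119423 to 30154980 and Hadhb at 30155253 to 30184593. Hadha was at 374 and 456 CPM in control and at 306 and 338 CPM in extract libraries, and Hadhb at 205 and 243 against 154 and 176 CPM. Both genes were lower in both extract libraries than in either control. Their log2 fold changes were -0.37 (SE 0.16, edgeR adjusted p = 0.226) and -0.44 (SE 0.16, edgeR adjusted p = 0.144). Of the 75-base stretches of Hadhb, 16.4% also occur in the predicted gene Gm13910, so its count is less certain than that of Hadha. Hadh, the short-chain hydroxyacyl-CoA dehydrogenase, had the largest change of the 8 (309 and 355 against 229 and 258 CPM, log2 fold change -0.45, edgeR adjusted p = 0.131).

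At the other end of the spiral genes, Acads, the short-chain dehydrogenase, was at 145 and 159.9 CPM in control and 139 and 149 CPM in extract libraries, with a 95% interval of -0.41 to 0.24 for its log2 fold change. Acaa2, the mitochondrial 3-ketoacyl-CoA thiolase, overlapped between the groups (754 and 958 against 721 and 878 CPM). Acadl and Acadvl, the long-chain and very long-chain dehydrogenases, had log2 fold changes of -0.30 and -0.16, and 1151 of the 2686 exon bases of Acadvl overlap Dvl2 on the opposite strand. Without control replicate 1, the log2 fold changes of the spiral genes ran from -0.56 (Hadhb) to -0.15 (Acads). Without control replicate 2, they ran from -0.34 (Hadh) to 0.09 (Acaa2).

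The auxiliary enzymes for unsaturated fatty acids (Decr1, Eci1, Eci2 and Ech1) gave 0 calls out of 4, and their groups overlapped in every case. Log2 fold changes ran from -0.48 for Ech1 to -0.14 for Eci2. In all 4 the higher control library was control replicate 2, by 1.48-fold for Eci1 to 1.98-fold for Eci2. The log2 fold change of Eci2 was -0.55 when control replicate 1 was left out and 0.44 when control replicate 2 was.

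Peroxisomal oxidation genes showed no called change. Ehhadh, the peroxisomal bifunctional enzyme, was at 435 and 460.4 CPM in control and at 408 and 478 CPM in extract libraries. The extract libraries bracketed the controls. Its log2 fold change was -0.02 with a 95% interval of -0.37 to 0.34 (edgeR adjusted p = 0.969). Hsd17b4, the second bifunctional enzyme, also overlapped (log2 fold change -0.14).

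Acaa1a and Acaa1b encode peroxisomal thiolases and had positive log2 fold changes. Acaa1b was at 575 and 691 CPM in control and at 675 and 918 CPM in extract libraries. Only extract replicate 2 lay above both controls. As a log2 fold change this was 0.33 (SE 0.20, edgeR adjusted p = 0.381), and that of Acaa1a was 0.18 (edgeR adjusted p = 0.588). Of the 75-base stretches in Acaa1b transcripts, 24.4% also occur in Acaa1a, so reads can be lost between the pair, and the separate values are uncertain.

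Bdh1, which interconverts the ketone bodies acetoacetate and beta-hydroxybutyrate, was at 215 and 317 CPM in control and at 167 and 205 CPM in extract libraries. The extract libraries lay below both controls (log2 fold change -0.52, edgeR adjusted p = 0.217). Pdk4, the kinase that spares pyruvate by inhibiting pyruvate dehydrogenase, was at 15.5 and 55.7 CPM in control and at 19.9 and 19.3 CPM in extract libraries. Control replicate 2 stood 3.59-fold above control replicate 1, and both extract libraries were near the lower control. Its log2 fold change of -0.86 (SE 0.67, edgeR adjusted p = 0.546) became 0.34 without control replicate 2.

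Fgf21, the hepatokine of fasting, was scarce. It had 30 and 84 counts in control against 20 and 36 after the extract, or 0.625 and 2.83 against 0.464 and 0.756 CPM. Here too control replicate 2 stood apart, 4.52-fold above control replicate 1. The log2 fold change was -1.47 (SE 0.79, edgeR adjusted p = 0.329), and it was -0.03 without control replicate 2. Leaving out control replicate 1 instead made the log2 fold change more negative than in the full fit. Each of these fits keeps a single control library, so the spread within control plays no part in it. The size of the fall therefore depended on which control library was kept.

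**Figure D2:**
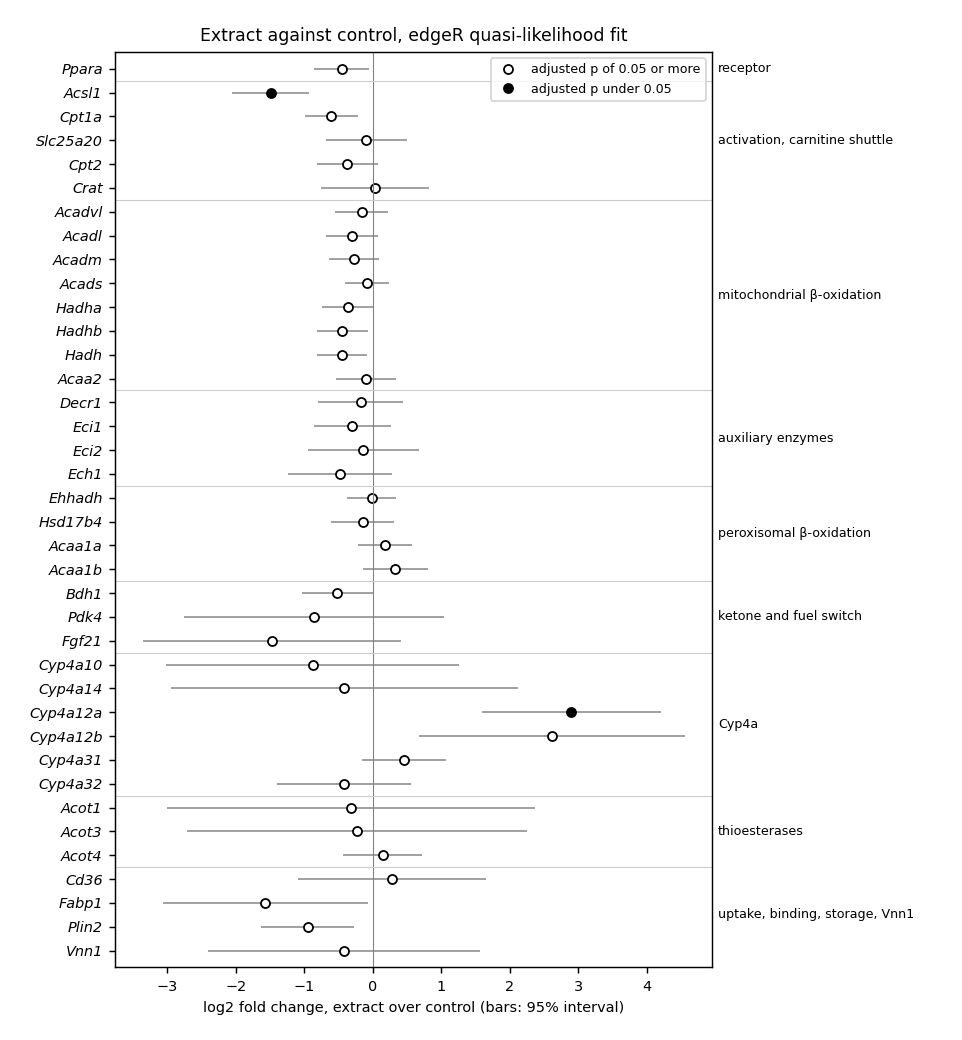
Points are log2 fold changes of extract over control from edgeR's quasi-likelihood fit, and bars their 95% intervals, with filled points for an adjusted p under 0.05. Acsl1 (-1.49) and Cyp4a12a (2.90) are filled, and the widest bars belong to Cyp4a12b, Cyp4a10, Cyp4a14, Acot1, Acot3, Vnn1, Fgf21 and Pdk4.

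The Cyp4a genes, a cluster on chromosome 4 that encodes hydroxylases of the omega end of fatty acids, did not move together. Cyp4a10 (115518287 to 115533649) was at 165 and 682 CPM in control and at 202 and 259.7 CPM in extract libraries. Cyp4a14 (115486200 to 115496158) was at 133 and 627 against 217 and 353 CPM. In both genes the extract libraries lay between the controls, and control replicate 2 exceeded control replicate 1 by 4.13-fold and 4.72-fold. The log2 fold changes were -0.88 (SE 0.75, edgeR adjusted p = 0.581) and -0.41 (SE 0.86, edgeR adjusted p = 0.839). Each turned with the control library used. Leaving out control replicate 1 gave -1.56 for Cyp4a10 and -1.14 for Cyp4a14. Leaving out control replicate 2 gave 0.48 and 1.10.

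Cyp4a12a and Cyp4a12b showed the opposite arrangement, with both extract libraries above both controls. Both are hydroxylases that male mouse liver makes in far larger amounts than female liver. Cyp4a12a (115299046 to 115332815) had 15 and 26 counts in control against 160 and 232 after the extract, or 0.313 and 0.875 against 3.71 and 4.87 CPM. This gave a log2 fold change of 2.90 (SE 0.55, 95% interval 1.59 to 4.20, edgeR adjusted p = 0.0242). It was not past the threshold without extract replicate 1 (adjusted p = 0.0638) or extract replicate 2 (0.130). Cyp4a12b (115411624 to 115439034) had 11 and 2 counts against 28 and 62 (log2 fold change 2.61, SE 0.82, edgeR adjusted p = 0.109).

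Reads of these genes cannot always be told apart, which is why their coding sequences are shown. Over 1524 coding bases they differ at 23, an identity of 98.5%, with 1 stretch of 342 bases without a difference. The 60 bases below, coding bases 624 to 683 in GENCODE vM21, hold 4 differences, as many as any window of that length, and capitals mark the bases that differ.
Cyp4a12a: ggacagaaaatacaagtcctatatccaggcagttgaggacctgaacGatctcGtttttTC
Cyp4a12b: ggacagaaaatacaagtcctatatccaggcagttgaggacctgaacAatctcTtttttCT
Of all 75-base stretches of Cyp4a12a, 40.8% also occur in Cyp4a12b. Summed over the pair, the level was 0.542 and 0.942 CPM in control and 4.36 and 6.17 CPM in extract libraries. This sum does not depend on how counted reads were split between the genes, but reads with no unique place are missing from it. The sum too was higher in both extract libraries. Xist lay at 754 to 1073 CPM, and the Y-linked genes Ddx3y, Eif2s3y, Kdm5d and Uty had 0 counts in all 4 libraries. By these genes, all 4 libraries read as female, though the labels give no sex. Among 12 other genes known as male-biased in liver, 2 were higher and 2 lower after the extract. Among 16 tested female-biased genes, which include Acot3 and Acot4, 1 was higher and 5 lower. Of all genes tested, 4.91% were higher and 3.63% lower.

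The remaining Cyp4a genes were not called. Cyp4a31 was at 8.96 and 14.5 CPM in control and at 14.6 and 17.5 CPM in extract libraries, so that the groups barely parted (log2 fold change 0.46, edgeR adjusted p = 0.353). Cyp4a32 was at 12.1 and 27.3 against 16.0 and 13.3 CPM, with both extract libraries between the controls (log2 fold change -0.42, edgeR adjusted p = 0.599). Cyp4a10, Cyp4a31 and Cyp4a32 share 75-base stretches, 28.0% of those of Cyp4a32, and their separate counts are less certain than those of Cyp4a14, which shares 0%.

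**Figure D3:**
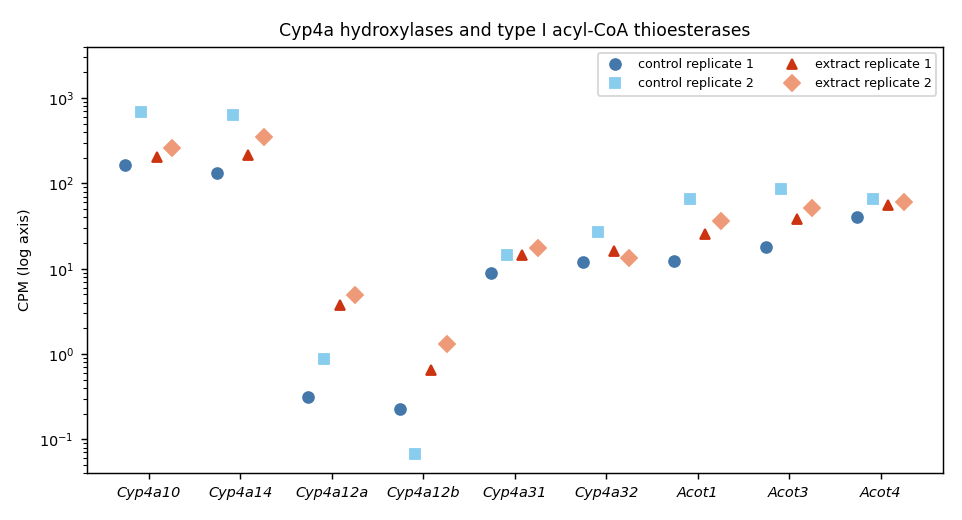
CPM of 6 Cyp4a genes and 3 acyl-CoA thioesterase genes on a logarithmic axis, 1 point per library. For Cyp4a10, Cyp4a14, Acot1 and Acot3 the control libraries lie at the lowest and highest positions with the extract libraries between them, while for Cyp4a12a and Cyp4a12b the extract libraries are on top.

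Thioesterases that split acyl-CoA into free fatty acid and coenzyme A followed the pattern of Cyp4a10. Acot1, the cytosolic form, was at 12.3 and 65.3 CPM in control and at 25.6 and 36.2 CPM in extract libraries. The peroxisomal Acot3 was at 18.03 and 86.8 against 38.1 and 51.0 CPM. In both, control replicate 2 was highest and control replicate 1 lowest, by 5.31-fold and 4.82-fold. The log2 fold changes were -0.32 for Acot1 (SE 0.90, 95% interval -3.01 to 2.36, edgeR adjusted p = 0.886) and -0.23 for Acot3 (edgeR adjusted p = 0.915). Acot1 came to -1.08 without control replicate 1 and to 1.33 without control replicate 2. For Acot3 the values were -0.96 and 1.31. Acot4, another peroxisomal form, varied less, at 40.0 and 65.8 against 56.5 and 60.5 CPM. These genes are neighbours on chromosome 12 and share stretches with each other and with other thioesterase genes.

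The genes of uptake, binding and storage of lipid differed among themselves. Fabp1, the abundant cytosolic fatty acid binding protein of hepatocytes (chromosome 6, 71199879 to 71205034), was at 1392 and 3161 CPM in control and at 511 and 1024 CPM in extract libraries. Both extract libraries lay below both controls, and the libraries within control differed 2.27-fold. Fitted over all genes, the log2 fold change was -1.57 (SE 0.55, 95% interval -3.07 to -0.07, edgeR adjusted p = 0.196). It stayed negative with each library left out, from -2.18 to -0.86.

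The Fabp1 promoter is shown because, of the 31 member windows searched, only it matched the binding motif of PPAR-alpha and the retinoid X receptor. That motif, called DR1, is a direct repeat of a short element, searched in a strict form with a pair of AGGTCA elements and in a loose form with a pair of AGGNCA elements, each pair joined by any 1 base (N), on both strands, in the 250 bases before each RefSeq start. The loose pattern includes every match of the strict one. RefSeq promoters on GRCm38.p6 were matched for 28 of the 38 genes, with 31 windows. Genes without a window, and so not searched, included Cyp4a10, Cyp4a14, Cyp4a12a, Cyp4a12b, Cyp4a31 and Vnn1. The strict pattern was in 0 of these and in 11 of 32851 windows of all genes (0.0335%), and the loose one in 1 of 31 and in 111 of 32851 (0.338%). The window lies at chr6:71199629-71199878, plus strand, and capitals mark the match, 67 to 55 bases before the start, which reads AGGCCATAGGTCA on the opposite strand.
Fabp1: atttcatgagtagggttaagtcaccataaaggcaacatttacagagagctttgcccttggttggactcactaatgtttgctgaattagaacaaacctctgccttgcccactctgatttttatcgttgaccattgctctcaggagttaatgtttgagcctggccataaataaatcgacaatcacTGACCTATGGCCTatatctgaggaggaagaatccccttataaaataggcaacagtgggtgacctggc
A match of letters is not a measured site, and elements outside this window were not searched.

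Plin2, the coat protein of hepatocyte lipid droplets, was at 344 and 569.8 CPM in control and at 200.1 and 273 CPM in extract libraries. The groups did not overlap. As a log2 fold change this was -0.95 (SE 0.28, edgeR adjusted p = 0.102), and DESeq2 gave -0.95 with an adjusted p of 0.00648. Vnn1, a pantetheinase, was at 13.8 and 53.7 against 24.7 and 25.4 CPM, with the extract libraries between the controls (log2 fold change -0.42, edgeR adjusted p = 0.787). Its log2 fold change too turned with the control library, to -1.10 without control replicate 1 and 0.86 without control replicate 2.

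Cd36, a fatty acid translocase of hepatocytes, macrophages and endothelium, went the other way within control. It was at 57.5 and 20.9 CPM in control and at 49.8 and 45.8 CPM in extract libraries, so that control replicate 2 was the lowest library. The log2 fold change was 0.28 (SE 0.50, edgeR adjusted p = 0.806). It was 1.19 when control replicate 1 was left out and -0.26 when control replicate 2 was. Of 12 Kupffer cell markers, 11 were lower after the extract, against 3.63% of all genes tested. Their summed levels were 758 and 605 CPM in control and 74.4 and 76.02 CPM in extract libraries. The 10 endothelial markers summed to 359 and 341 against 403 and 369 CPM. Of these 10, 3 were higher and 2 lower, against 4.91% and 3.63% of all genes tested. The part of Kupffer and endothelial cells in the Cd36 values was not tested.

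**Figure D4:**
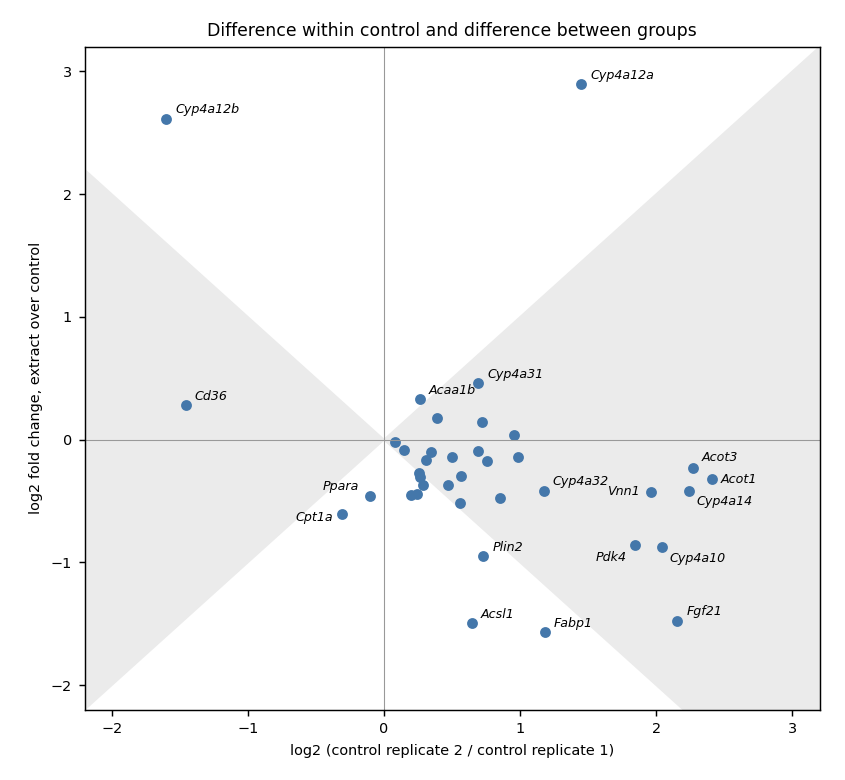
Each point is 1 of the 38 genes, at the log2 ratio of control replicate 2 to control replicate 1 (horizontal) and the log2 fold change of extract over control (vertical). Grey areas hold the 25 genes whose control libraries differed more than the groups did, with Acot1, Cyp4a14, Acot3, Fgf21 and Cyp4a10 at the far right.

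Among the 38, the widest control pairs were those of the inducible targets. For 25 of the 38 genes (65.8%, against 50.4% of all genes tested) the control libraries differed by more than the groups did on the log2 scale. Control replicate 2 was above control replicate 1 for 34 of the 38 (89.5%, against 46.9% of all genes tested), all except Ppara, Cpt1a, Cyp4a12b and Cd36. It was at least 2-fold above it for 10 (26.3%, against 3.80% of all genes tested), namely Pdk4, Fgf21, Cyp4a10, Cyp4a14, Cyp4a12a, Cyp4a32, Acot1, Acot3, Fabp1 and Vnn1, and at least 2-fold below it for 2 (5.26%, against 9.41%). None of the 8 spiral genes differed 2-fold within control, and the widest ratio among them was 1.27-fold, in Acaa2. In the extract pair 1 gene, Fabp1, differed at least 2-fold (2.63%, against 5.72% of all genes tested).

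Lists of genes known to follow feeding, fasting and the time of day were counted beside the 38, against 4.91% higher and 3.63% lower of all genes tested. Of 13 genes known to rise with feeding, 7 were higher after the extract and 0 lower. Of 12 genes known to rise with fasting, 2 were higher and 1 lower. Among 17 clock genes 10 were higher and 5 lower. Between the controls, replicate 2 was the higher library for 8 of the 13 feeding genes and 6 of the 12 fasting genes. It was the higher for 4 of the 17 clock genes and for 46.9% of all genes tested. The part of feeding state and collection time in the values of the 38 genes was not tested.

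Per kilobase of exon, the order of levels was led by Fabp1 in both groups, at 4117 CPM per kilobase in control and 1387 in extract. Acaa2 (565 and 527 CPM per kilobase) and Acaa1b (323 and 406) came next in both. Cyp4a10 followed in control, at 201 CPM per kilobase, where its libraries spread 4.13-fold, and Ehhadh took that place in extract, at 149. The lowest levels were those of Cyp4a12b, at 0.0619 CPM per kilobase in control and 0.407 in extract, and in control Cyp4a12a was next, at 0.245.

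A further 154 tested genes from 5 lists around the same pathway held more calls than the 38. Among them 10 were higher (6.49%) and 19 lower (12.3%), against 4.91% and 3.63% of all genes tested, with a median log2 fold change of -0.15. The lists were chosen with earlier results of these data known, so these shares are a description only. The counts depended on the libraries: leaving out control replicate 1 gave 18 higher and 50 lower, control replicate 2 gave 27 and 33, extract replicate 1 gave 4 and 5, and extract replicate 2 gave 5 and 7. Total-count scaling gave 12 and 12. The 9 called in every alternative were Ppard, Cpt1c, Crot, Acat2, Abhd5, Cyp8b1, Gdf15, Chka and Sult2a1. Esrra, Hacl1 and Acat1 lost their call when extract replicate 1 was left out, and the other 17 when either extract library was. Of these 17, Acsm3, Phyh, Pxmp4, Bdh2, Slc16a1, Cyp4v3 and Ppp1r3c also lost it with total-count scaling. Abcd2 and G0s2 lost it with no low-count filter and with the replicate block, Nudt19 with upper-quartile scaling, Nudt19, Phyh and Pxmp4 without the robust step, and Pxmp4 with the strict filter.

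Receptors and co-regulators gave 2 higher and 1 lower of 24, against 4.91% and 3.63% of all genes tested. Ppard, the PPAR-delta receptor, was at 44.6 and 38.6 CPM in control and at 14.3 and 11.96 CPM in extract libraries, a 3.18-fold fall (log2 fold change -1.67, SE 0.16, edgeR adjusted p = 0.00273). Rxra, the partner of PPAR-alpha, was at 458 and 479 against 401 and 353 CPM (log2 fold change -0.31, edgeR adjusted p = 0.253). The estrogen-related receptor Esrra rose (log2 fold change 1.10).

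Peroxisomal genes outside the 38 gave 2 higher and 6 lower of 35, against 4.91% and 3.63% of all genes tested. Crot, which makes carnitine esters of the shortened chains for export to mitochondria, was at 1224 and 1186 against 343 and 418 CPM. It fell 3.16-fold (edgeR adjusted p = 0.00271). Hacl1, the lyase of alpha-oxidation, fell 2.33-fold (edgeR adjusted p = 0.00946), and Phyh, the hydroxylase before it, 1.61-fold (0.0462). The very long-chain transporter Abcd2 (4.52-fold, or 3.00-fold without control replicate 1) and the enoyl-CoA isomerase Eci3 (6.70-fold) also fell, as did Pxmp4 (2.03-fold), while Nudt19 and Slc25a17 rose 1.60-fold and 1.58-fold. Without extract replicate 1, Crot alone among these stayed past the threshold.

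A list of genes in or related to mitochondrial oxidation gave 2 higher and 2 lower of 33. Of all genes tested, 4.91% were called higher and 3.63% lower. Cpt1c, a relative of Cpt1a best known from brain, was at 0.625 and 0.236 CPM in control and 12.1 and 10.9 CPM in extract libraries. It rose 25.2-fold (edgeR adjusted p = 0.00212), and 48.1-fold without control replicate 1. Acacb, whose product malonyl-CoA inhibits Cpt1, rose 1.91-fold (edgeR adjusted p = 0.0161). Etfdh, which passes electrons from the dehydrogenases to ubiquinone, fell 1.93-fold (edgeR adjusted p = 0.0147), and Acsm3, a medium-chain synthetase, 1.70-fold (0.0228).

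Of 9 tested genes of ketone body metabolism, 1 rose and 3 fell, against 4.91% and 3.63% of all genes tested. Acat1, the mitochondrial acetoacetyl-CoA thiolase, fell 2.56-fold (380.4 and 606 against 167 and 219 CPM, edgeR adjusted p = 0.0283). Bdh2 and the monocarboxylate transporter Slc16a1 fell 2.15-fold and 1.99-fold, and the cytosolic thiolase Acat2, which feeds sterol synthesis, rose 2.92-fold (edgeR adjusted p = 0.00275).

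In the last list, other lipid genes and known or reported PPAR-alpha targets, 3 of 53 rose and 7 fell. Of all genes tested, 4.91% rose and 3.63% fell. Angptl4, the inhibitor of lipoprotein lipase that fasting raises, was at 46.2 and 222 CPM in control and at 13.9 and 24.7 CPM in extract libraries. Control replicate 2 was again the highest, and both extract libraries lay below both controls (log2 fold change -2.80, SE 0.96, edgeR adjusted p = 0.219). Abhd5, the co-activator of adipose triglyceride lipase, rose 2.72-fold (edgeR adjusted p = 0.00417), and G0s2, the inhibitor of the same lipase, fell 3.02-fold (0.0356). Hormone-sensitive lipase (Lipe, 1.73-fold) and the stress cytokine Gdf15 (5.51-fold) rose. The bile acid hydroxylase Cyp8b1 (19.4-fold), the sulfotransferase Sult2a1 (71.7-fold), choline kinase Chka (3.82-fold), and the P450 genes Cyp2j5 (1.79-fold) and Cyp4v3 (1.69-fold) fell, and so did Ppp1r3c (1.51-fold).

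**Figure D5:**
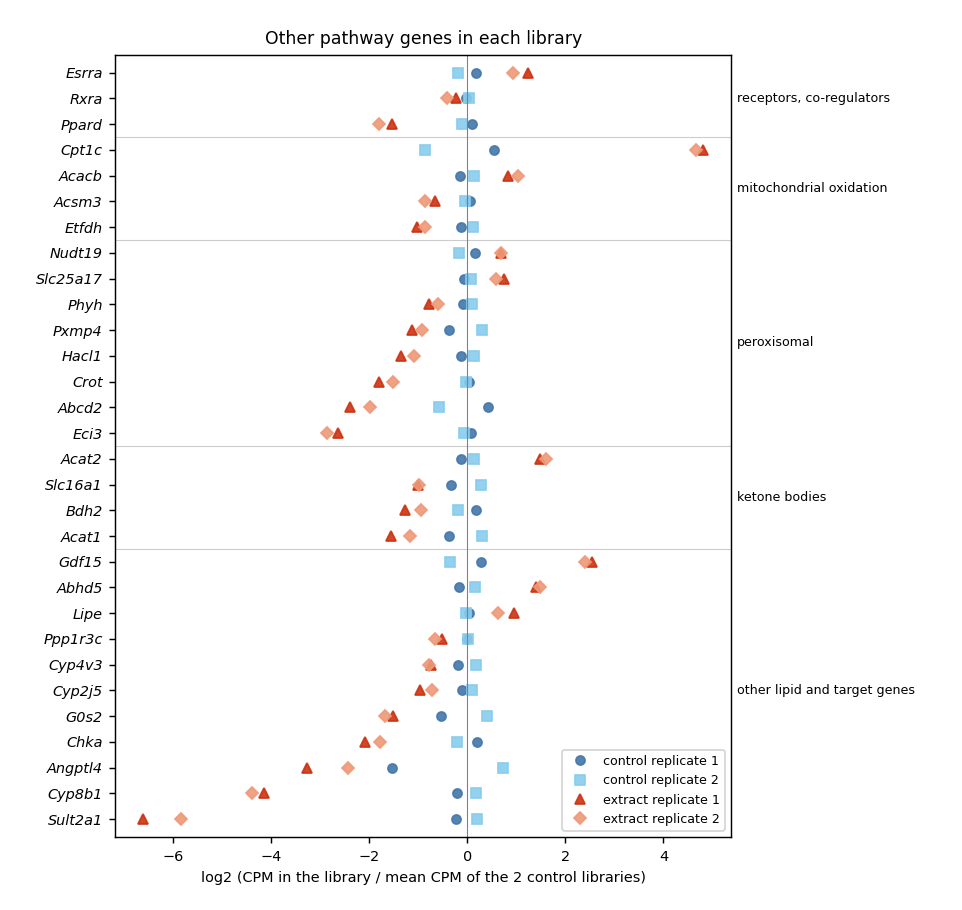
Each row is a gene from the further pathway lists and each point a library, at the log2 ratio of its CPM to the mean CPM of the control libraries. Called genes named in the text are drawn, together with Rxra and Angptl4. The extract libraries lie close to each other in most rows, and Angptl4 shows the widest control pair.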

How the data were processed

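Total RNA of mouse liver was extracted with Trizol and sequenced on Illumina libraries, per the labels' protocols. The programs, per the submitters' processing notes, were CASAVA 1.8, HISAT2 2.1.0 and HTSeq, on mm10. Annotation, read length and strand setting: not given in the sources used here. Counts of genes that overlap on opposite strands are therefore uncertain. The deposited files hold raw counts per gene symbol, made by the authors, for 25239 genes, and 5 closing rows that name no gene. Those were kept out of library sizes and tests. Alignments with no unique place took 5.18% to 9.03% of records, and records in no feature 8.40% to 10.2%.

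Groups follow the sample titles. Counts were fitted with edgeR 4.0.16 in R 4.3.3 (filterByExpr, TMM, robust dispersion, robust glmQLFit, 2-sided quasi-likelihood F test) over 13963 genes, adjusted after Benjamini and Hochberg, with a threshold of 0.05. The standard error is the log2 fold change over the square root of F. Common biological variation (BCV) was 22.3%. A single read corresponds to 0.0208, 0.0337, 0.0232 and 0.0210 CPM in the control and extract libraries in order of replicate number, and a count of 0 allows up to 3 counts, 0.0625 to 0.101 CPM, for counting error only. Log2 ratios within a pair were taken after adding a constant worth less than 1 read. Positions are those of RefSeq on GRCm38.p6, the assembly of mm10. Exon lengths and 75-base stretches come from GENCODE vM21, which is also on GRCm38. Protein sequences were not used here. On simulated counts the fit called 7 of 50 genes changed 1.5-fold and 19 of 50 changed 2-fold. It called 39 of 50 changed 4-fold, 43 of 50 changed 8-fold and 27 of 13763 left unchanged. A gene that was not called may therefore still have changed. Libraries of a group differed by more than sampling noise, with a chi-square per degree of freedom of 102 within control and 25.0 within extract.

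The 38 genes, the further lists and the check lists were chosen with earlier results of these data known. Full values are given for every called gene of the 38 and for 16 listed genes whatever their result. From each further list up to 5 called genes in each direction with the smallest p-values were to be named, besides Angptl4 and Rxra, and the few other called genes (Pxmp4, Cyp4v3 and Ppp1r3c) were named after their values were seen. A few genes of these lists are not reported here. Alternatives were DESeq2 1.42.0, limma-voom (limma 3.58.1), other scalings, no robust step, no filter, a strict filter (10 counts in 2 libraries, mean CPM of at least 1), a fit without the 20 genes of highest mean CPM, fits without each library and a replicate block.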

Additional observations from a re-analysis of the deposited data

How the results depend on the processing

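With each library left out in turn, genes called over all genes ran from 233 to 1826 higher and from 134 to 1782 lower, calls among the 38 from 0 to 10 higher and from 0 to 21 lower, and their median from -0.50 to 0.057. There, the spread of the single library left was taken from the other group's pair. DESeq2 called 1034 genes higher and 921 lower, and 3 of the 38 lower (Acsl1, Cpt1a and Plin2). Without a filter on low counts 2 of the 38 were lower (Acsl1 and Cpt1a). In all, 21 of the 38 changed sign in at least 1 alternative, 20 of them with a library left out. Among genes given in full, sign changes came for Pdk4 (-1.51 to 0.34 over the left-out libraries), Cyp4a10 (-1.56 to 0.48), Cyp4a14 (-1.14 to 1.10), Acot1 (-1.08 to 1.33) and Cd36 (-0.26 to 1.19), and for Ehhadh (-0.16 to 0.082, with 0.03 without control replicate 2 and 0.082 without extract replicate 1). Acot1 was 0.20 with limma-voom, and Ehhadh 0.15 with total-count scaling, which moved all genes up. The cause was not tested. The replicate numbers share only a number: deviations of same-numbered libraries correlated at r = 0.22, with 2 pairs. The fit with the replicate block called 902 genes higher and 682 lower and 4 of the 38 lower (Acsl1, Cpt1a, Fabp1 and Plin2), and Acot1 was 0.086. Acsl1 was past the threshold in 13 of 14 alternatives and Cyp4a12a in 12 of 14, and both kept their direction in all 14. With 2 libraries per group and a wide control pair, the 95% intervals of Pdk4, Cyp4a10, Cyp4a14, Acot1, Acot3, Cd36 and Vnn1 span changes of 2-fold in both directions.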
